A study of Caenorhabditis elegans with 2 samples.

Results

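The mir-51 family is a set of 6 microRNA (miRNA) genes of the nematode Caenorhabditis elegans, mir-51 to mir-56 (cel-mir-51, cel-mir-52, cel-mir-53, cel-mir-54, cel-mir-55 and cel-mir-56), out of 261 nuclear miRNA genes in the annotation used. They were examined for peaks of the T-box protein TBX-11 in early embryos. The 6 genes were taken by name, and each gene with the 2 kb upstream of it was searched for peak summits. The family was proposed because peaks at some of its genes had already been seen in these data, so the peak values below are a description and carry no test.

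Bound DNA was recovered by chromatin immunoprecipitation and sequenced (ChIP-seq). The material was whole early embryos, labelled as 1 hour old and obtained by egg bleaching, in 2 biological replicates of 1 group. Both replicates were of strain OP368, which carries the transgene wgIs368, a fosmid copy of tbx-11 fused to TY1, EGFP and 3xFLAG together with unc-119(+), in the unc-119(tm4063) mutant background. The antibody was directed against GFP according to the sample description, whereas the antibody field names tbx-11. No embryos of another genotype or stage were included, the endogenous gene is not stated to be deleted, and the tagged protein was supplied from an added copy. Chromatin was sonicated to fragments of 200 to 800 bp. Whole embryos mix all cell types, so a peak cannot be assigned to a tissue, and no RNA was measured, so whether the family is transcribed in these embryos was not tested.

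A miRNA is cut from a hairpin in a longer transcript, and its bases 2 to 8, the seed, pair with target messenger RNAs and lower their output. Members of the mir-51 family are related to miR-99 and miR-100 of other animals and act redundantly in the worm embryo, where loss of the whole family is lethal and the pharynx fails to stay attached. T-box proteins bind DNA through a conserved domain and regulate cell fates in many animal embryos.

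The mature sequences, from the RefSeq annotation of the ce11 assembly, are printed because the seed is what makes the genes a family. Capitals mark the seed, and each mature miRNA is given 5′ to 3′.
mir-51: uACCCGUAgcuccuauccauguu
mir-52: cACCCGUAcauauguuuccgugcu
mir-53: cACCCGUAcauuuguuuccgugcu
mir-54: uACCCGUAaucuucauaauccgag
mir-55: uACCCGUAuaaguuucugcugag
mir-56: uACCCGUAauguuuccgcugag

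All 6 carried the seed ACCCGUA, and those 7 positions were the ones shared by the whole family. The mature miRNAs were compared base by base from the 5′ end, without gaps. Counted in this way, mir-52 and mir-53 had the same base at 23 of 24 positions and differed by A12U (mir-52 base first). The other pairs matched at 39.1% (mir-54 and mir-55) to 63.6% (mir-54 and mir-56) of the positions compared. These shares can understate likeness, because an inserted or missing base shifts the rest of a pair. The pair mir-55 and mir-56 scored 50% in this count, although both hold GUUUC and end in GCUGAG. How far the members diverged outside the seed therefore cannot be read from these shares. In mir-51, mir-52 and mir-53 the seed-bearing strand lay on the 5′ arm of the hairpin, and in mir-54, mir-55 and mir-56 on the 3′ arm. The longest run shared by the mir-52 and mir-53 hairpins was 17 bases, against 7 to 11 for every other pair.

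The genes lay at 3 loci on assembly ce11. The mir-51 gene (WBGene00003279) occupied IV:11026013-11026112 on the minus strand and mir-53 (WBGene00003281) IV:11027593-11027691 on the same strand. The gap between them was 1480 bp, so the 2 kb window upstream of mir-51 held the whole mir-53 gene. The mir-52 gene (WBGene00003280) was at IV:14034008-14034107 on the plus strand. The others formed a cluster of 404 bp on the minus strand of chromosome X, with mir-54 (WBGene00003282) at X:13144996-13145094, mir-55 (WBGene00003283) at X:13144827-13144924 and mir-56 (WBGene00003284) at X:13144691-13144787. Genes mir-51, mir-52 and mir-53 were intergenic with respect to protein-coding genes, and the X cluster lay in an intron of F09A5.3, on the strand opposite to that gene.

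TBX-11 peaks were present at 2 of the 6 genes, mir-51 and mir-52, and this held in each of the 4 thresholded lists. The lists were a conservative list of both replicates (882 peaks), another list of both replicates (1042 peaks), and lists of replicate 1 (561 peaks) and replicate 2 (467 peaks). Genes mir-53, mir-54, mir-55 and mir-56 had no summit in any of them. As background, 18 of 261 miRNA genes had a summit in the gene or 2 kb upstream in the conservative list, or 6.90% (Clopper-Pearson 95% interval 4.14 to 10.7). The share was 5.75% in the other pooled list (15 genes) and 2.30% in replicate 1 (6 genes) and in replicate 2 (6 genes). Of 19973 protein-coding genes, 908 (4.55%, 4.26 to 4.84) had a conservative summit in the gene or 2 kb upstream. Those genes are longer, and with the 2 kb upstream alone the shares were 5.75% for miRNA genes and 2.99% for protein-coding genes. Intervals cover counting error over genes only and treat genes as independent, although neighbouring genes can share a peak. The 18 miRNA genes had 13 distinct peaks, and 6 of these genes, mir-36 to mir-41, were on 1 peak. Distinct peaks were not counted for protein-coding genes, so the difference between the classes cannot be read per peak. The family share cannot be read against these shares as a result, because the family was chosen on these peaks.

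The signal of a peak is the authors' value for its strength, on a scale that is not stated, and rank 1 is the strongest peak of a list. At mir-51 the signal was 518 in the conservative list, 260 in replicate 1 and 238 in replicate 2. It ranked 10 of 882 in the conservative list, 10 of 1042 in the other pooled list, 23 of 561 in replicate 1 and 7 of 467 in replicate 2. Both replicates thus placed it among their strongest peaks. At mir-52 the signal was 258 in the conservative list, 140 in replicate 1 and 98.6 in replicate 2. It ranked 94 of 882, 94 of 1042, 119 of 561 and 131 of 467 in the same order. The mir-51 peak was the stronger of the pair in every list. Signals of different lists are not on 1 scale, so each value is read against the other peaks of its list. The score expresses the irreproducible discovery rate (IDR, a measure of whether ranks are repeated between analyses). For both peaks it was 1000 in all 4 lists, the highest possible. Much weaker conservative peaks also reached 1000, such as that near mir-62 (signal 81.1, rank 656 of 882), so the score does not set these peaks apart.

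**Figure D1:**
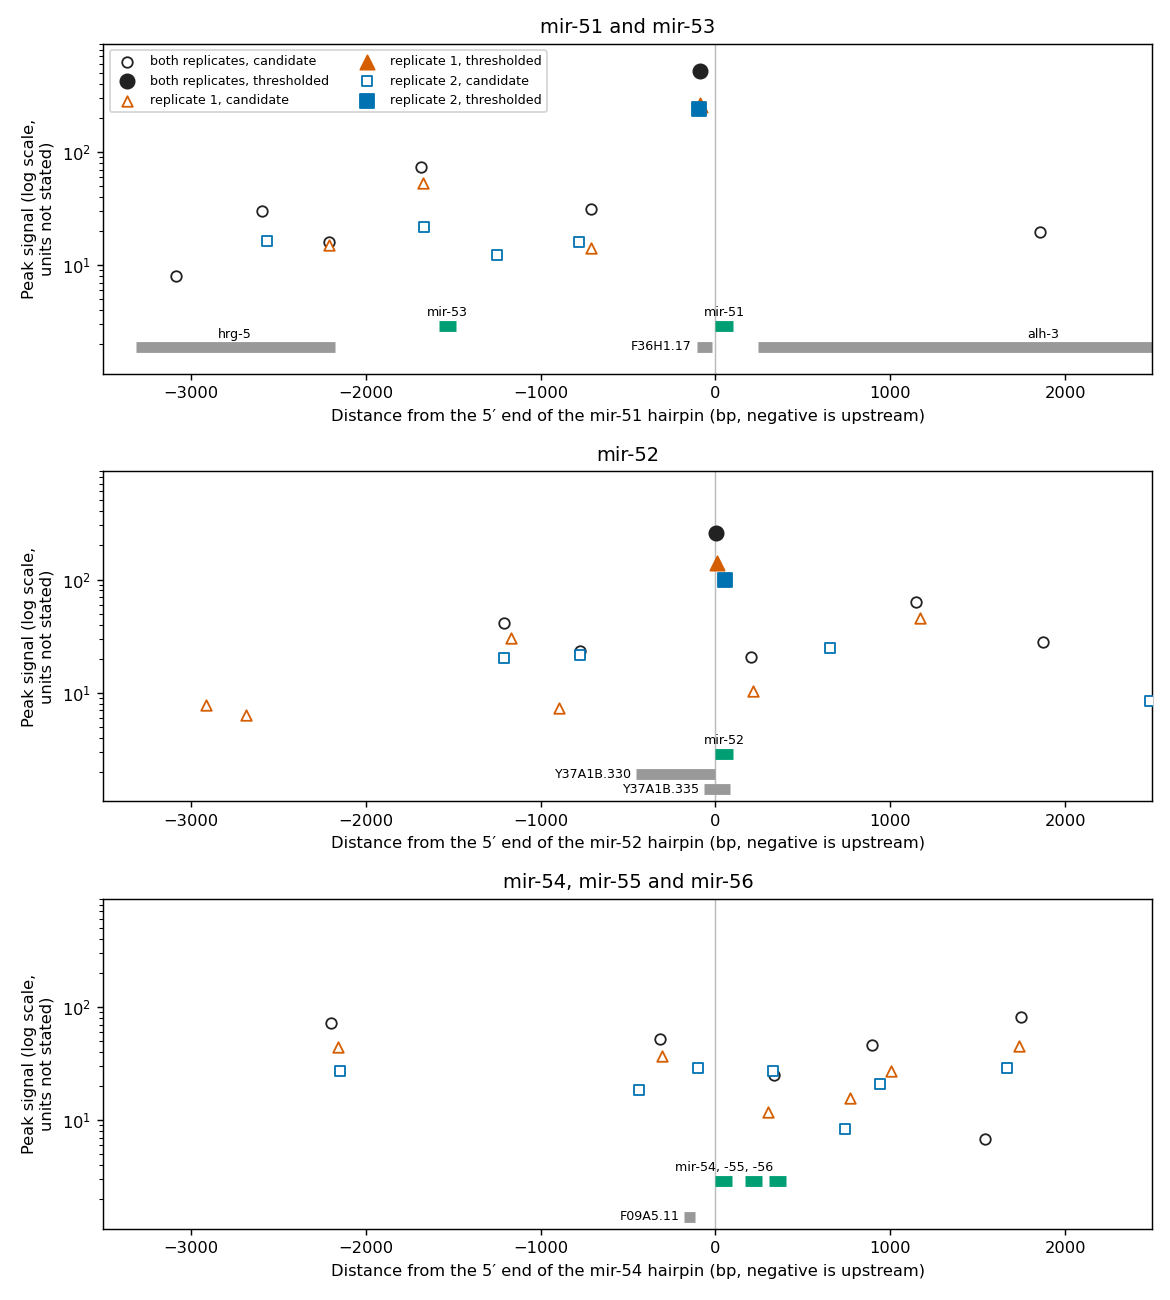
Signal (log scale, units not stated) of every peak summit in the span drawn against its distance in bp from the 5′ end of the first hairpin at each of the 3 loci, in the list of both replicates and in each replicate. Filled symbols are thresholded peaks and open symbols are candidates of the ranked lists; green bars are miRNA hairpins and grey bars neighbouring genes (F09A5.3, whose intron spans the X cluster, is not drawn). The filled symbols sit just upstream of mir-51 (518, 260 and 238) and within mir-52 (258, 140 and 98.6, the last 57 bp into the hairpin), and there is none at the X cluster.

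The summit of the mir-51 peak was placed alike in the replicates. In the conservative list it covered IV:11025994-11026360 (367 bp, against a median of 330 bp in that list), with the summit at 11026201, 89 bp upstream of the hairpin and 105 bp upstream of the mature miRNA. The summit was 90 bp upstream in replicate 1 and 93 bp upstream in replicate 2. The replicate summits were therefore 3 bp apart, against a median of 15 bp over the 345 conservative peaks found in both replicates. The replicate peaks covered 71.9% and 67.6% of the conservative peak.

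The mir-51 summit lay inside another gene. F36H1.17 (WBGene00219935), annotated as a non-coding RNA of 89 bp at IV:11026131-11026219, starts upstream of mir-51 on the same strand and ends 18 bp before its hairpin. The summit fell on base 19 of F36H1.17. A peak of this width cannot separate the 2 genes. The nearest gene on the other side was the protein-coding alh-3, 142 bp downstream on the opposite strand, and the nearest protein-coding gene upstream was hrg-5, at 2176 bp.

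The mir-51 region is printed because it carries the strongest peak of any miRNA gene and a match to an RNA polymerase III element. Both sequences are from the minus strand of ce11, read 5′ to 3′ towards mir-51, and capitals mark the B box match. The peak region, IV:11026101-11026301, is the 100 bp to each side of the summit, and F36H1.17 lies within it.
F36H1.17: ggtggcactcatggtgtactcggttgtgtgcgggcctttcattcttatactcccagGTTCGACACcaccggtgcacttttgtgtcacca
mir-51 peak: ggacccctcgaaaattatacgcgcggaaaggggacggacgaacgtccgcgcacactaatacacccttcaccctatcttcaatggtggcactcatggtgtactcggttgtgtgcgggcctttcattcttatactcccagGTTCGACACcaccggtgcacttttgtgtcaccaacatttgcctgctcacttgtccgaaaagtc

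The B box is the internal promoter element at which RNA polymerase III factors bind in tRNA genes, and it was sought as GTTCNANNC on both strands. In F36H1.17 the match spanned bases 57 to 65, on the strand of the gene, and its centre was 42 bp downstream of the summit. Within 100 bp of the summit, 321 of 882 conservative peaks (36.4%) held this pattern. It was in 227 of 238 peaks with a tRNA gene within 100 bp (95.4%) and in 94 of 644 other peaks (14.6%). The median distance from summit to match was 36 bp at tRNA genes and 38 bp at the others. Among the 94 peaks with a match and no tRNA gene, the mir-51 peak was number 4 by signal. Among 62 peaks with no tRNA gene whose summit lay in a gene annotated as ncRNA or lincRNA, 14 had the match (22.6%), and the mir-51 peak was number 1 of the 62 and mir-52 number 13. A match is a string of letters in the sequence, and binding of polymerase III factors was not measured.

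The other motifs sought, all on both strands within 100 bp, were the T-box core GGTGTG, the TATA box TATAAA, the GAGA repeat GAGAGA, the word CTGCGTC, the word CGCGCA and the GC box GGGCGG. No GGTGTG was found at the mir-51 or mir-52 peak, and 9.64% of all conservative peaks held it. The mir-51 peak had CGCGCA 51.5 bp upstream of the summit, a word present at 15.4% of peaks. The sequence was richer in G and C than most, at 52.7% against a median of 45.8% (quartiles 41.8 to 50.2) over all peaks.

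Next to mir-51 by rank were peaks nearest to genes of small RNAs. Such genes are common over the list, as 238 of the 882 conservative peaks had a tRNA gene within 100 bp. The share at snoRNA genes was not counted, so the neighbours cannot be read as a trait of peaks of this strength. The peaks ranked 8 and 9 in the conservative list, with signals of 533 and 519, were nearest to the tRNA genes C04A11.t1 and W03G11.t1. The peak ranked 11 (505) was nearest to the tRNA gene F15G9.t1, and that ranked 12 (482) to the snoRNA gene T02E1.9. tRNAs are the adaptors of translation and snoRNAs guide chemical modification of other RNAs. Of the 238 peaks at tRNA genes, 2 had a higher signal than the mir-51 peak.

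The mir-52 peak covered IV:14033858-14034159 (302 bp), with the summit at 14034014. This is 6 bp inside the hairpin and 10 bp before the mature miRNA. The region within 100 bp of the summit, IV:14033914-14034114, is printed because the hairpin fills its downstream side. It is on the plus strand, 5′ to 3′, and capitals mark the hairpin.
mir-52 peak: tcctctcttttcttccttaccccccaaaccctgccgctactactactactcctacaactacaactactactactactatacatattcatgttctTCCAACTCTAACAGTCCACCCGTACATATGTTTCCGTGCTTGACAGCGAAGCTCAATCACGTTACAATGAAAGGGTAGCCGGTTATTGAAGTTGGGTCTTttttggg

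None of the 7 motifs occurred within 100 bp of the mir-52 summit, and GAGAGA occurred once in the whole peak, a word held by 27.6% of whole peaks. The G and C content was 43.8%, close to the median of all peaks. The nearest annotated gene upstream was the non-coding RNA Y37A1B.330, which ends 3 bp before the hairpin on the same strand. Another non-coding RNA, Y37A1B.335, overlaps mir-52 on the opposite strand and also contains the summit. The piRNA gene 21ur-2841 was 1093 bp downstream. The nearest protein-coding genes were distant, irld-55 at 9379 bp upstream and Y37A1B.7 at 8487 bp downstream.

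The replicates placed the mir-52 peak less alike than the mir-51 peak. The summit was 7 bp inside the hairpin in replicate 1 and 57 bp inside it in replicate 2, a gap of 50 bp. As large a gap was found at 14.2% of the 345 peaks shared by the replicates. The replicate 1 peak was 320 bp wide and covered 100% of the conservative peak. The replicate 2 peak was 108 bp wide and covered 35.8% of it, and 10.7% of the shared peaks had as narrow a peak in replicate 2. The replicate 1 to replicate 2 signal ratio was 1.42 at mir-52 and 1.09 at mir-51, against a median of 1.26 (quartiles 1.07 to 1.50) over all 345. The peaks ranked next to mir-52 were also nearest to small RNA genes, again without a share over the whole list to set beside them. They were nearest to the snoRNA genes T08B2.13 (rank 92, signal 261), T24H7.6 (rank 93, 260) and W01C9.6 (rank 96, 254) and the tRNA gene Y59E1B.t2 (rank 95, 257).

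**Figure D2:**
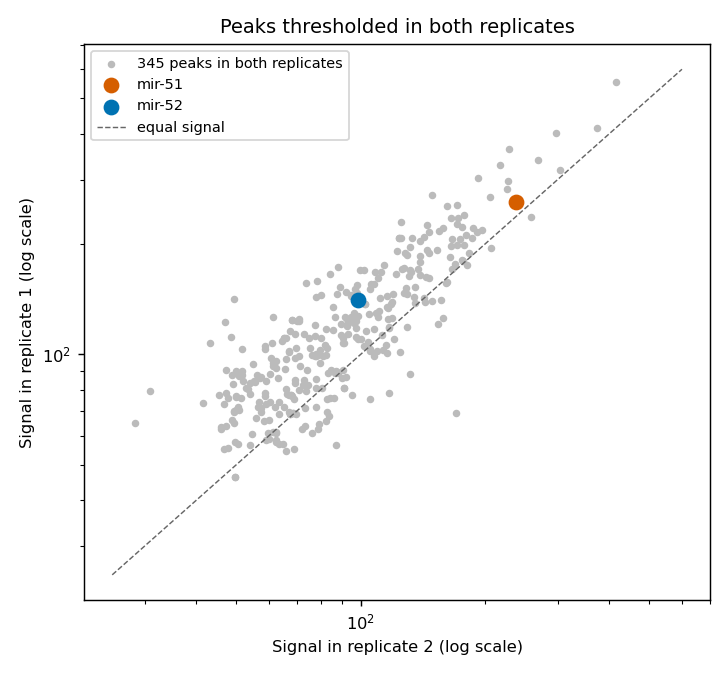
Signal of each conservative peak found in both replicates (345 peaks, both axes on log scales), replicate 2 across and replicate 1 upward, with the line of equal signal. The mir-51 peak (260 and 238) is near the strong end and close to the line, and the mir-52 peak (140 and 98.6) lies above the line like most of the grey points.

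The ranked lists hold 45180 to 105251 entries and keep candidates that are absent from the thresholded lists. Every thresholded peak had an IDR score of at least 830, called the threshold below. Absent candidates were not all weaker or below it. The highest signal was 3100 in the conservative ranked list against 973 in the conservative thresholded list. At or above 830 the former had 1002 entries, against 882 peaks retained, and why the rest were left out was not tested. In the conservative ranked list, 218 of 261 miRNA genes (83.5%, 78.5 to 87.8) had a candidate summit in the gene or 2 kb upstream. A candidate is therefore the usual case for a miRNA gene, and all 6 members had at least 1. What differed between members was its strength. Beside their thresholded peaks, mir-51 had candidates of 31.4 at 711 bp and 74.0 at 1684 bp upstream, the latter next to mir-53, and mir-52 had candidates of 23.4 and 40.9 at 776 and 1211 bp upstream in that list. The median of the strongest candidate of each gene was 36.5 (quartiles 26.9 to 49.9) over the 218 genes, 24.7 in replicate 1 and 19.8 in replicate 2. Ordered by their strongest candidate, mir-51 was number 1 and mir-52 number 2 of the miRNA genes in all 4 ranked lists.

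Candidates near mir-53, the near copy of mir-52, were close to its hairpin and had a low score in replicate 2. The strongest was at IV:11027631-11027960, with the summit 105 bp upstream of the hairpin, a signal of 74.0 and rank 1072 of 87796. Its score was 444 in the conservative ranked list and 663 in the other pooled ranked list, both below the threshold. In replicate 1 the signal was 53.7, the score 690 and the summit 94 bp upstream. In replicate 2 the signal was 21.7, the score 19, the rank 9340 of 45180 and the summit 87 bp upstream. Among miRNA genes mir-53 was number 17 in the conservative ranked list, 11 in replicate 1 and 77 in replicate 2. The summits lay on the same side of the hairpin as those of mir-51, 87 to 105 bp away against 89 to 93 bp. The next gene upstream of mir-53 was the protein-coding hrg-5, at 597 bp on the same strand, and further candidates of 7.97 to 30.2 lay over hrg-5.

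The region of the mir-53 candidate, IV:11027696-11027896, is printed for comparison with the mir-51 and mir-52 peaks. It is the minus strand, 5′ to 3′ towards mir-53, and capitals mark the matches to TATAAA and to GAGAGA, which reads TCTCTC on this strand.
mir-53 candidate: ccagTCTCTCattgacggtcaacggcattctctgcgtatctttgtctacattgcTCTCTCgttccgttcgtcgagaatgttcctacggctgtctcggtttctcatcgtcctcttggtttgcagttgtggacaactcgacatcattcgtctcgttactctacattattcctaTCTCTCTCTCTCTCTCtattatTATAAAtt

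The mir-53 region had 8 overlapping or separate matches to GAGAGA and 1 to TATAAA, patterns held by 22.9% and 11.9% of conservative peaks. It had no GTTCNANNC and no GGTGTG. The matches to TATAAA and the longest CT repeat lay between the summit and the hairpin, with TATAAA centred 95.5 bp downstream of the summit. All stretches of 30 bases in the mir-51 and mir-52 peaks and in the mir-53 candidate occurred once in the genome, so none of these regions shares a sequence of that length with another locus.

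The X cluster had candidates below the threshold that differed in place between the replicates. Upstream of mir-54, the conservative ranked list had a summit 315 bp away at X:13145244-13145573, with a signal of 51.9, a score of 234 and rank 4402 of 87796. Replicate 1 had a signal of 36.6 and a score of 240 there, 306 bp upstream. Replicate 2 instead had candidates 99 bp upstream (signal 28.9, score 22) and 438 bp upstream (18.4, score 46). Since the windows overlap, within each of these lists 1 candidate was the strongest for mir-54, mir-55 and mir-56 alike. Its signal was above the upper quartile of the miRNA genes' strongest candidates, which was 49.9 in the conservative ranked list, 35.7 in replicate 1 and 27.0 in replicate 2. In replicate 2 this was the candidate 99 bp upstream, a different place, and the one 438 bp upstream was below the quartile. The 3 genes shared place 51 among miRNA genes in the conservative ranked list, 40 in replicate 1 and 35 in replicate 2. The nearest annotated gene upstream of mir-54 was the non-coding RNA F09A5.11, at 118 bp. The region held 1 match to GGGCGG, 11.5 bp from the summit, a word present at 12.6% of conservative peaks.

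A candidate over mir-56 was nearer to the threshold in replicate 2 than in the other lists. Its summit was 26 bp inside the hairpin in the conservative ranked list, with a signal of 24.9 and a score of 54. In replicate 1 the summit was 8 bp upstream with a signal of 11.7 and a score of 149. In replicate 2 it was 21 bp inside with a signal of 27.5 and a score of 557. Downstream of mir-56 the nearest gene on the other side was the lincRNA gene linc-43 at 2659 bp, and the nearest protein-coding genes outside F09A5.3 were ttr-34 at 3804 bp downstream and mob-2 at 8032 bp upstream.

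A stronger candidate lay downstream of the X cluster, on the side that the search window does not cover, and scored just below the threshold in the pooled ranked lists alone. At X:13143181-13143510, with the summit 1345 bp downstream of mir-56, the signal was 81.0 and the score 822 in the conservative ranked list and 829 in the other pooled ranked list. The lowest score among thresholded peaks was 830. In replicate 1 its signal was 45.6 with a score of 345, and in replicate 2 it was 29.1 with a score of 160. The same candidate is upstream of mir-55b, a miRNA gene annotated on the strand opposite to mir-55, by 1484 bp, and made mir-55b number 11 among miRNA genes. Another candidate, 2196 bp upstream of mir-54 and so also outside the window, had a signal of 72.7 in both pooled ranked lists. Its score was 728 in the conservative ranked list and 443 in the other. The candidates there had a signal of 44.7 and a score of 23 in replicate 1, and 27.4 and 122 in replicate 2.

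**Figure D3:**
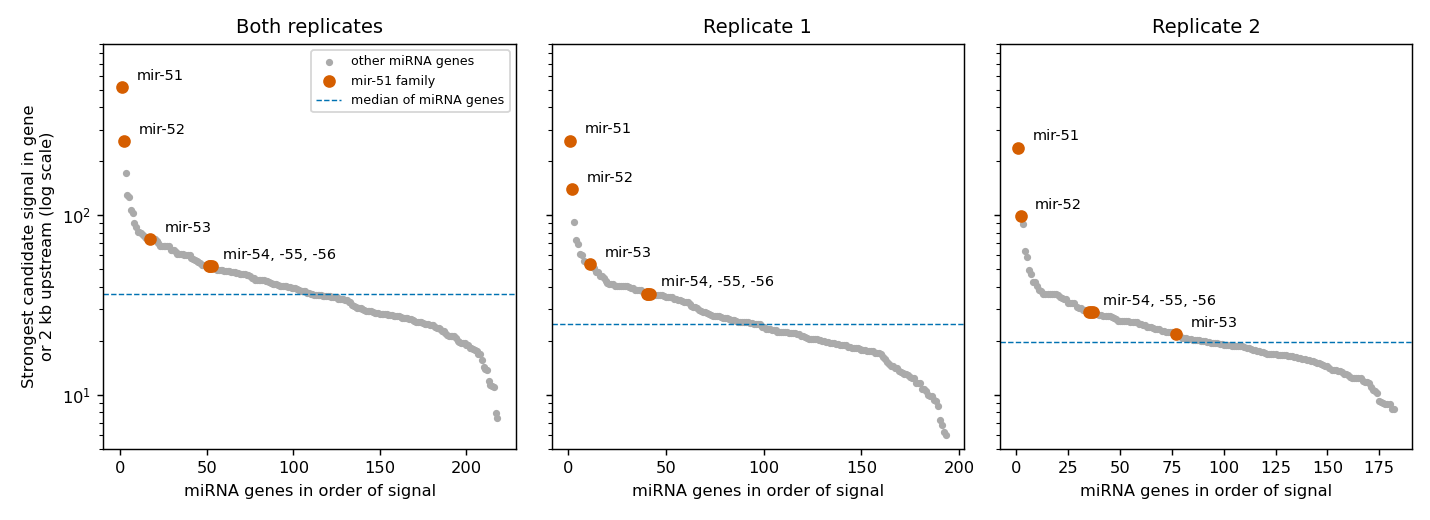
Strongest candidate signal in the gene or 2 kb upstream (log scale) for each miRNA gene with a candidate, in descending order, in the ranked list of both replicates and in each replicate; the dashed line is the median (36.5, 24.7 and 19.8). The mir-51 and mir-52 genes are numbers 1 and 2 in each panel, and mir-53 falls from number 17 and number 11 to number 77 in replicate 2.

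The remaining 16 miRNA genes with a conservative summit had weaker peaks than mir-51 and mir-52. They shared 11 distinct peaks with signals of 67.8 to 130 and a median of 81.1. The strongest were near mir-2 (130), mir-58a (127), mir-8190 (107) and mir-4936 (103). Peaks in the windows of mir-235 (90.1), mir-62 (81.1), mir-2208a (79.2), mir-59 (77.2), mir-80 (74.3) and mir-71 (74.2) followed. Not all of these were close to the miRNA gene. The mir-235 summit was 1848 bp upstream and had a tRNA gene within 100 bp. Those of mir-2208a, mir-59 and mir-71 were 1822, 1525 and 1218 bp upstream, and that of mir-62 lay in a coding exon. Of the 13 distinct miRNA peaks, 4 were found in both replicates, those at mir-51, mir-52, mir-2 and mir-58a. Over the whole conservative list 345 of 882 peaks were found in both, so such support does not set miRNA peaks apart. The number 3 miRNA gene by candidate signal was mir-249, at 173 with a score of 1000 and a summit 927 bp upstream, but that candidate was absent from the thresholded list. The conservative ranked list had 1002 entries at or above a score of 830, against the 882 retained by the authors.

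**Figure D4:**
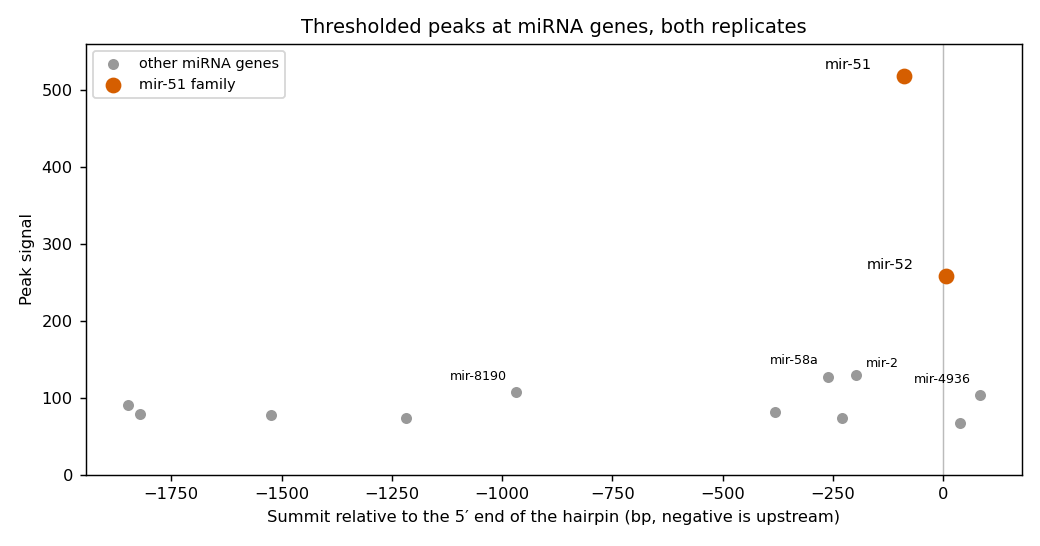
Signal of the 13 distinct conservative peaks at miRNA genes against the position of the summit relative to the 5′ end of the hairpin in bp, where negative is upstream; a peak shared by several genes is drawn at the nearest. The mir-51 (518, 89 bp upstream) and mir-52 (258, 6 bp inside) points stand above the others, which lie between 67.8 and 130.

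Few miRNA genes kept a summit in a narrower window. With the window reduced to the gene and 100 bp upstream, 5 of 261 miRNA genes (1.92%) kept a conservative summit. These were mir-51, mir-52, mir-4936, and mir-36 and mir-37, which share 1 peak. That mir-51 and mir-52 remained follows from the summit positions given above and, since the family was chosen on these peaks, adds no support. In replicate 1 and in replicate 2 the count was 2 (0.766%), which were mir-51 and mir-52.

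Of the other families listed for comparison, 10 of 38 genes found had a conservative summit, on 5 distinct peaks. The share of all miRNA genes was 6.90%, which includes these 10. The families were listed with earlier results of these data known, and 6 of the 10 genes share 1 peak. Enrichment was not tested and cannot be read from these counts. The mir-35 family, also expressed in embryos and required there, had 6 of 8 genes with a summit, all on 1 peak of signal 67.8 with its summit in mir-36, and 0 of 8 in the other 3 thresholded lists. The let-7 family, which times larval development, had 0 of 4, and the lin-4 family 0 of 2. The mir-58 family had 2 of 8, mir-58a and mir-80, and 2 of 16 other embryonic or broadly expressed miRNA genes had one, mir-2 and mir-71. Replicate 1 and replicate 2 each retained mir-58a and mir-2.

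Genes of the machinery that makes and uses miRNAs were listed together with cdh-3, a cadherin gene and reported target of the family. Of the 20 genes of this list that were found, 4 had a conservative summit in the gene or 2 kb upstream. The share of protein-coding genes was 4.55%, or 2.99% with the 2 kb upstream alone. The 4 listed genes were alg-5 (signal 174) and alg-1 (92.9), which encode Argonaute proteins, ain-1 (79.3), a GW182-type partner of Argonaute, and xrn-2 (74.6), a 5′ to 3′ exonuclease. The summits were 771 to 1278 bp upstream of the annotated starts. Only the alg-5 peak was found in both replicates, at signals of 91.0 and 65.4, and 345 of all 882 conservative peaks were found in both. The other pooled list also gave 4, with vig-1 in place of xrn-2. The count was 1 with peaks at or above the median signal and 0 with 500 bp upstream. Enrichment of the list was not tested. The target gene cdh-3 had no thresholded summit.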

How the data were processed

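Per the labels and the deposited file descriptions, the 8 peak lists are on assembly ce11: 4 ranked by IDR and 4 thresholded, for each replicate and for both, against the same control alignments. The sources used here name no aligner, peak caller or nature of the control. As deposited by the authors, signal is a strength set by the peak caller and score is a scaled IDR. Read depth is unknown. In each ranked list 8 columns of unnamed sub-analyses (32 in all) were not used.

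Summits (start plus offset) were assigned to Ensembl release 115 genes with Python 3.11.15, pandas 2.3.3, scipy 1.17.1 and pysam 0.24.0, and ranks were taken by signal. Replicate support required 1 bp of overlap. Sequences came from RefSeq ce11. The window count was tested on simulated summits. With 1 group there was no contrast and no test. Alternatives were other lists, windows and overlaps.

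The members, lists and motifs were chosen with earlier results of these data known. The genes named are the members, their nearest genes, other miRNA genes with a conservative summit (at most 12 by signal) and genes nearest to peaks within 2 ranks. Genes mir-249, mir-55b and vig-1 were named after their values were seen. Replicates are separate biological samples per the labels, and the listed genes mir-1834 and ntl-1 were not matched.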

Additional observations from a re-analysis of the deposited data

How the results depend on the processing

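No paired analysis was possible because the design has 1 group. The family count of 2 was the same under all 10 alternatives, but most of these could not lower it. Both summits lay in the hairpin or within 100 bp of it, so every window held them. Both signals were above the median, and the other pooled list holds the same peaks. The family was also chosen on these peaks, so the unchanged count adds no support. The count of 18 miRNA genes was 6 in either replicate alone, 5 with peaks at or above the median signal and 6 with summits within 100 bp of the gene. The comparison families' 10 became 3 in the other pooled list, 2 at or above the median signal, 3 within 100 bp and 2 in either replicate. The pathway genes' 4 became 1 at or above the median signal, 0 with 500 bp upstream or within 100 bp, 2 with 1 kb upstream and 1 in either replicate. Signal ranged from 238 to 260 for mir-51 and from 98.6 to 140 for mir-52 in single replicates. Signals of lists made from different alignments are not on 1 scale. Ranks were 7 to 23 and 119 to 131 there, and 25 and 138 with candidates included. When each peak had to cover 50% of the other, 1 member peak (mir-51) was found in both replicates. Within 50 bp 1 of the 7 motifs matched at mir-51 against 2 within 100 bp, and over the whole peak 1 matched at mir-52 against 0. The cause was not tested. The alternatives for comparison families, pathway genes and ranks were added after seeing the data. Ranking by the deposited significance column was not run, since it holds 1 value throughout. Without read counts, depth limits are unknown.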
